A study of Mus musculus with 8 samples.

Results

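Solute carrier (Slc) genes encode the membrane proteins that move amino acids, sugars, ions, metals, nucleotides and vitamins across the plasma membrane and the membranes of organelles. The genes described here were the protein-coding genes of the mouse whose symbol starts with Slc and a family number and whose span held the midpoint of at least 1 m6A peak on the gene's own strand. Of 371 annotated Slc genes, 92 met this rule (24.8%, 95% Wilson interval 20.7 to 29.4%), where 25.1% of all 21951 protein-coding genes did. The genes were chosen by having a peak, so these shares are a description and were not tested. The 92 genes held 224 of the 17068 peaks deposited for the series. Slc22a14 and Slc7a6os met the rule by symbol and position only. The 9 peaks assigned to Slc22a14 lay inside Oxsr1, a kinase gene over which its annotated span of 196099 nt runs, and Slc7a6os is a neighbour of Slc7a6 that encodes no transporter. Without both, 90 genes remained.

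The peaks came from ChrMeRIP-seq, in which m6A-containing fragments of chromatin-associated RNA were immunoprecipitated and sequenced beside their input. All 8 libraries came from untreated E14 mouse embryonic stem cells, an established line grown on gelatine in serum with LIF, and formed 4 groups of 2: SySy ChrMeRIP and SySy input, Abcam ChrMeRIP and Abcam input. The labels name one library kit for all 8 libraries, while the study's methods name different kits for the SySy and the Abcam libraries, so the antibody and the kit cannot be told apart. Confidence group 1 (Cfg1) holds peaks called with both antibodies, Cfg2 those called with SySy while Abcam signal stayed under the threshold, and Cfg3 those called with Abcam only. The lists were made from both replicates together and give no height, depth or value per library, so there is no spread between replicates to set beside a count, and the intervals below cover counting error only. Of 15 marker genes of embryonic stem cells 13 held a peak, and of 8 fibroblast markers 1 did (Fn1), where 25.1% of all protein-coding genes did. A peak is no measure of expression, so these counts do not show which cells were present.

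m6A is laid down on nascent RNA by the METTL3/METTL14 writer complex, at adenosines within the consensus DRACH (D is A, G or T; R is A or G; H is A, C or T), of which GGACT is a common form. In mature mRNA it is known to lie mostly in long exons, near the stop codon and in the 3′ UTR, where reader proteins act on the stability and translation of the message. Growing cells take up glutamine, leucine and glucose through Slc proteins. A peak reports enrichment of fragments from a region and not a single modified base, and a gene without a peak may still be transcribed and methylated.

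The windows below show the GGACT nearest to the midpoint of the peak in the genes on which the account turns. They are 25 nt long, on the strand of the gene, 5′ to 3′, in the letters of the mm10 genome (assembly GRCm38.p6), with GGACT in capitals. The first group lay in exons of carriers with Cfg1 peaks, and the last pair lay under the SySy-called intronic peaks that held the motif.
Slc5a3, exon 2, coding sequence, chr16:92078183-92078207, plus strand: tgagtgacttGGACTccatctttaa
Slc5a3, exon 2, coding sequence, chr16:92078835-92078859, plus strand: cagcattaagGGACTgcaacctgaa
Slc16a3, exon 6, coding sequence, chr11:120958038-120958062, plus strand: acgtgggagtGGACTcgagggaggt
Slc39a7, exon 1, coding sequence, chr17:34030877-34030901, minus strand: catagccatgGGACTtctagggagg
Slc44a2, exon 22, 3′ UTR, chr9:21353922-21353946, plus strand: ggaacctagaGGACTggggcatctc
Slc35b4, exon 10, 3′ UTR, chr6:34158372-34158396, minus strand: atgacaagaaGGACTgaggtctgcc
Slc12a7, exon 24, 3′ UTR, chr13:73814958-73814982, plus strand: gatggggtcaGGACTgtgcaagctg
Slc37a3, exon 15, 3′ UTR, chr6:39336552-39336576, minus strand: ttctgtttgtGGACTattatatttc
Slc25a37, intron 2, Cfg1, chr14:69248951-69248975, minus strand: tgctgacagaGGACTccgagccact
Slc20a2, intron 1, Cfg2, chr8:22482972-22482996, plus strand: tcggaaaaaaGGACTgaagaaaggc

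Cfg1 contributed 59 of the 224 peaks, in 38 genes. Cfg2 contributed 98 peaks in 55 genes, and Cfg3 contributed 67 peaks in 38 genes. As shares of the 371 annotated Slc genes these were 10.2% for Cfg1, 14.8% for Cfg2 and 10.2% for Cfg3, beside 12.1%, 13.7% and 13.3% of all protein-coding genes for the same lists. A SySy-called peak, that is one of Cfg1 or Cfg2, was held by 74 Slc genes (19.9%, against 19.7% of all protein-coding genes). A further 18 genes had Cfg3 peaks only (4.85%, against 5.46%), and 7 genes had peaks of all 3 lists (1.89%, against 3.29%). Of the 92 genes, 28 had Cfg2 peaks alone, 18 had Cfg3 alone and 14 had Cfg1 alone. The shares of all protein-coding genes with Cfg2 alone or Cfg1 alone were not counted, so these counts describe the Slc genes only. Other families of membrane transport genes were 25 of 86 ATPase subunits and pumps (29.1%), 11 of 50 ABC transporters (22%) and 22 of 159 ion channels (13.8%) with a peak of any list. No test was made between these families.

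The number of peaks per gene ranged from 1 to 9 with a median of 2. A single peak was found in 41 genes, just inside the rule, and 279 Slc genes had none. At the other end 21 genes had 4 or more peaks (22.8%, against 24.95% of 5294 other coding genes). For those 5294 genes each peak outside the Slc spans was given to 1 gene only. By the rule used for Slc genes, 5420 other coding genes had a peak, so the shares were counted by unlike rules. Peaks were refined at summits in the study, so neighbouring entries can be pieces of 1 called region. The 224 peaks came from 169 called regions, 40 of which had been split within the gene into 2 or more entries, 95 in all. In 9 of these regions, in 9 genes, some pieces were in Cfg1 and others in Cfg2.

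**Figure D1:**
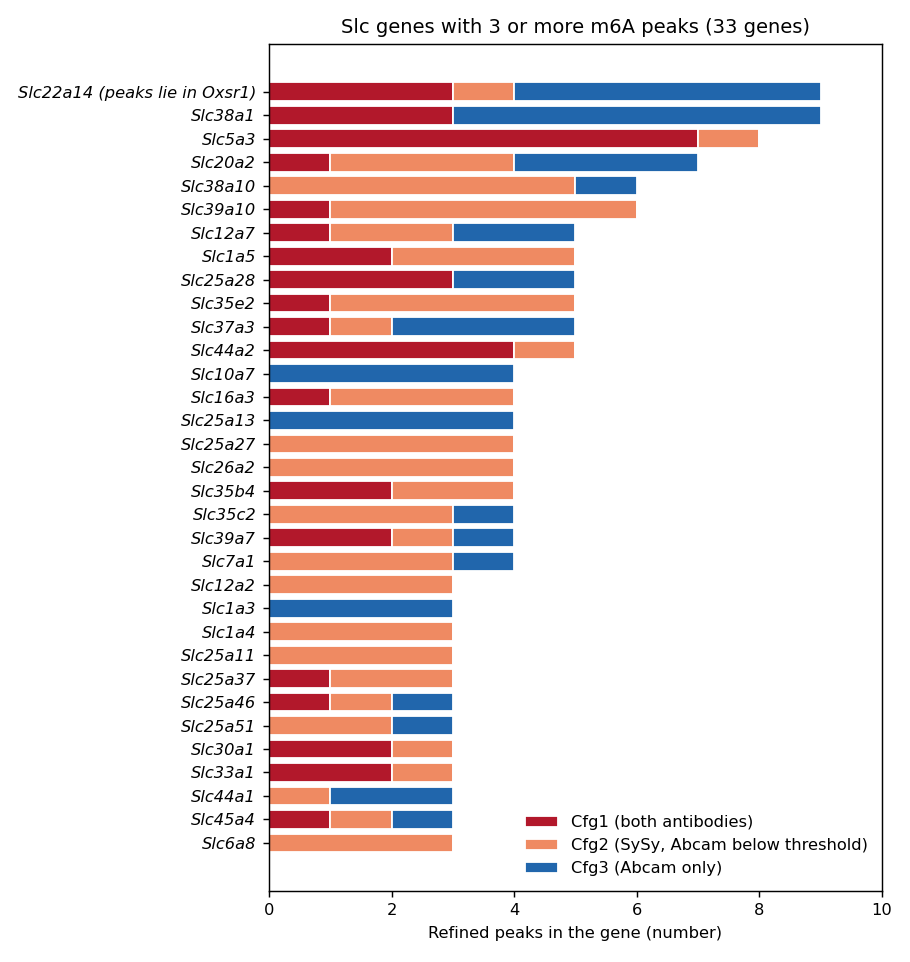
Number of refined peaks (horizontal axis) in each of the 33 Slc genes with 3 or more, coloured by list (Cfg1, Cfg2, Cfg3). Slc38a1 had 9 peaks and Slc5a3 had 8, 7 of them Cfg1, while the 9 peaks in the span of Slc22a14 lay in Oxsr1.

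Slc genes with a peak had a median mRNA length of 3568.5 nt and a median 3′ UTR of 1681.5 nt in the representative transcript, the one with the longest coding sequence. Those without a peak had medians of 2842 nt and 857 nt. Other coding genes with a peak had medians of 3673 nt and 1191 nt. Whether these lengths have a part in the location shares given below was not tested.

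The functional groups below are described beside the 25.1% of all protein-coding genes that held a peak, and no group was tested against that share. Carriers of amino acids were the functional group with the most annotated genes. Of these, 18 of 63 (28.6%) held 49 peaks, 7 in Cfg1, 24 in Cfg2 and 18 in Cfg3. The 63 were counted by family number and include genes for other solutes, such as the creatine transporter Slc6a8, whose 3 peaks are among the 49. Slc7a5, the light chain of the leucine transporter LAT1, had a pair of Cfg2 peaks in the 3′ UTR, 317 and 599 nt past the stop codon. These held 2 and 3 GGACT motifs, and 3 was the highest number in any Slc peak. Slc3a2, the heavy chain with which it pairs, had only a Cfg3 peak, in intron 1 and 514 nt before exon 2. The glutamine transporter Slc1a5 (ASCT2) had 5 peaks, in exons 1, 6 and 9. A pair of Cfg1 peaks and a Cfg2 peak lay in exon 1, a Cfg2 peak in exon 6, and a Cfg2 peak with 2 GGACT motifs 10 nt past the stop codon. Slc7a11, the cystine/glutamate exchanger, had no peak.

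The cationic amino acid transporter Slc7a1 had 3 adjoining Cfg2 peaks 610 to 881 nt past the stop codon and a Cfg3 peak at 78 nt. Slc1a4, a carrier of alanine, serine and cysteine, had 3 adjoining Cfg2 peaks between 394 and 743 nt past it. Of the sodium-coupled neutral amino acid transporters, Slc38a2 had 1 Cfg1 peak far into the 3′ UTR, 2021 nt past the stop codon. Slc38a10 had 5 Cfg2 peaks, 4 of them in exon 17 between 753 nt before and 59 nt past the stop codon, and 1 Cfg3 peak in the same exon. Slc38a9, a lysosomal sensor of arginine, carried the most distal exonic peak of any Slc gene, a Cfg2 peak 6846 nt past the stop codon in an exon of 7251 nt. The glycine transporter Slc6a9 had a Cfg2 peak 11 nt past the stop codon. The taurine transporter Slc6a6 and the glutamate transporter Slc1a3 had Cfg3 peaks only, all intronic.

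Slc38a1, a carrier of glutamine, was the member with the most peaks outside the Slc22a14 span. Its 9 peaks were 3 Cfg1 and 6 Cfg3. The 3 Cfg1 peaks all lay in intron 3, which is 6170 nt long, 611, 1177 and 2201 nt downstream of the 5′ splice site (chr15:96613817-96615656 from the first to the last base, minus strand). None of the 3 held GGACT. A second coding transcript of the gene does not splice at this site and runs 2440 nt into the intron, where its exon 3, the last, ends. The 3 Cfg1 peaks and a pair of Cfg3 peaks at 79 and 195 nt lay within this stretch. A further Cfg3 peak, at 3217 nt, lay past its end. Of the remaining Cfg3 peaks 1 was in intron 4, and the other pair was in the 3′ UTR of the long transcript, 173 and 283 nt past the stop codon.

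Among 30 carriers of sugars and related solutes 7 had a peak (23.3%). Slc5a3, the sodium-coupled myo-inositol transporter, had the most Cfg1 peaks of any Slc gene, 7, and 1 Cfg2 peak. They came from 3 called regions and lay in exon 2, a single exon of 10754 nt that holds the whole coding sequence. They ran from 2225 nt before to 48 nt past the stop codon, with 1 in the 5′ UTR, 6 in the coding sequence and 1 in the 3′ UTR. No peak lay in the remaining 3′ UTR. The exon also lies inside introns of Mrps6 and Gm49711 on the same strand, so reads from those transcripts cannot be told apart from its own. The glucose transporters Slc2a1 (GLUT1) and Slc2a3 (GLUT3) had 1 Cfg3 peak each, in the 3′ UTR 404 nt past the stop codon for Slc2a1 and in intron 1 for Slc2a3.

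**Figure D2:**
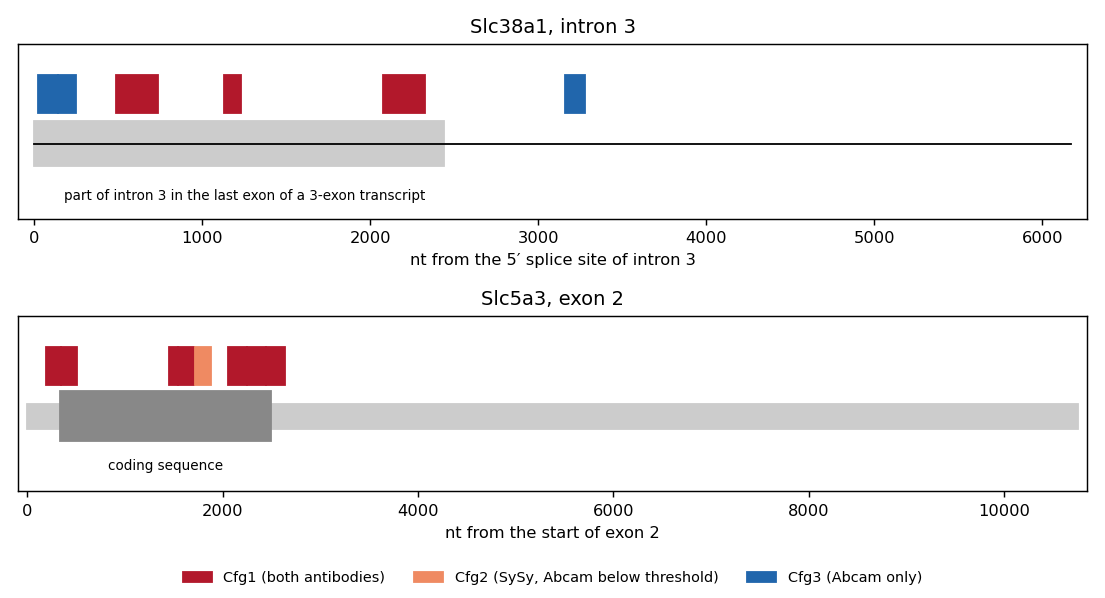
Peaks of Slc38a1 along intron 3 (upper panel, nt from the 5′ splice site) and of Slc5a3 along exon 2 (lower panel, nt from the start of the exon), coloured by list. The light grey box in the upper panel is the part of the intron that a second coding transcript includes, which covers 5 of the 6 peaks drawn; the dark grey box in the lower panel is the coding sequence, on which 6 of 8 peaks had their midpoint.

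Metal transporters had peaks in 10 of 33 genes (30.3%, against 25.1% of all protein-coding genes). Each of the 10 had a SySy-called peak, as did 74 of all 92 Slc genes with a peak. Slc39a10, a zinc importer, had 1 Cfg1 and 5 Cfg2 peaks, 3 in exon 2 and 1 in exon 7 of the coding sequence and a pair 43 and 129 nt past the stop codon. Slc39a7, which releases zinc from the endoplasmic reticulum, had Cfg1 peaks in exon 1 and in the 3′ UTR, the last at 361 nt past the stop codon. It also had 1 Cfg2 and 1 Cfg3 peak in exon 1, and all 4 lay in the span of the overlapping model Gm20427. Slc30a1, the zinc exporter of the plasma membrane, had a pair of Cfg1 peaks in the coding part of exon 2 and a Cfg2 peak 119 nt past the stop codon.

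Mitochondrial carriers of family 25 had peaks in 14 of 47 genes (29.8%). The mitoferrins, which bring iron into mitochondria, both had Cfg1 peaks. Slc25a28 (mitoferrin 2) had 3 adjoining Cfg1 peaks in the coding part of its last exon, 149 to 481 nt before the stop codon, and a pair of Cfg3 peaks in intron 2, which a retained-intron transcript includes. Slc25a37 (mitoferrin 1) had 1 Cfg1 peak in intron 2, at 422 nt of 1756, and a pair of Cfg2 peaks on either side of the stop codon. That intronic peak is the one shown above with GGACT, and it was exonic in a retained-intron transcript and in one annotated for nonsense-mediated decay. Slc25a27 had 4 Cfg2 peaks in its 3′ UTR, and the aspartate/glutamate carrier Slc25a13 had 4 Cfg3 peaks, all in introns 2 and 14. The citrate carrier Slc25a1 had none.

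Family 35, most of whose known members carry nucleotide sugars into the Golgi and the endoplasmic reticulum, had peaks in 9 of 27 genes (33.3%). Each of the 9 had at least 1 SySy-called peak, as did 74 of all 92 Slc genes with a peak. Slc35b4 had 4 peaks in its last exon of 5247 nt, Cfg1 at 47 and 927 nt and Cfg2 at 1478 and 1647 nt past the stop codon. Slc35e2 had 5 peaks in exon 9, from 158 nt before to 802 nt past the stop codon, of which the most distal was Cfg1. Slc35c2 had 3 adjoining Cfg2 peaks with 1 GGACT each. All but 1 of the 20 peaks of this family were exonic, and the exception was a Cfg3 peak in intron 1 of Slc35c2.

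Monocarboxylate and acetyl-CoA carriers had peaks in 5 of 15 genes (33.3%). Slc16a3 (MCT4), a lactate exporter, had 4 SySy-called peaks in the coding part of exons 5 and 6, the Cfg1 one 17 nt before the stop codon. Slc16a1 (MCT1), a carrier of lactate and pyruvate, had 1 Cfg3 peak 200 nt before the stop codon. Families of ion exchange and cotransport had peaks in 10 of 54 genes (18.5%, against 25.1% of all protein-coding genes). The 54 were counted by symbol and include Slc4a1ap, Slc9a3r1 and Slc9a3r2, none of which had a peak. The potassium-chloride cotransporter Slc12a7 had a Cfg1 peak 34 nt past the stop codon, shown above, a pair of Cfg2 peaks further into the 3′ UTR, and Cfg3 peaks in introns 1 and 17. Slc26a2, a sulfate transporter placed in this group by its family number, had 4 Cfg2 peaks, all in coding sequence.

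Slc44a2, a choline transporter-like protein, had 4 Cfg1 peaks and 1 Cfg2 peak that came from 1 called region and lay 127 to 990 nt past the stop codon. The phosphate transporter Slc20a2 had 7 peaks over all 3 lists, of which the Cfg2 peak in intron 1 lay in an exon of the overlapping model Gm17491. Slc37a3 had a Cfg1 and a Cfg2 peak in the 3′ UTR and 3 Cfg3 peaks in intron 1. Slc10a7 had 4 Cfg3 peaks in introns 2, 4 and 5. The nucleoside transporter Slc29a1, the fatty acid transporter Slc27a1, the lysosomal peptide and histidine transporter Slc15a4 and the vesicular nucleotide transporter Slc17a9 each had SySy-called peaks in the 3′ UTR alone. Apart from Slc22a14, whose peaks belong to Oxsr1, none of the 27 genes for organic ions and multidrug transport had a peak. Slc17a9 was the 1 gene of 14 with a peak among the vesicular and lysosomal families (7.14%). The share over all protein-coding genes was 25.1%, and neither group was tested against it.

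The next comparison asked where in the transcript the peaks of each list lay. Inside the representative transcripts there were 54 Cfg1, 95 Cfg2 and 62 Cfg3 Slc peaks. A further 13 lay outside them, among them the 9 in the Slc22a14 span, a pair upstream in Slc25a47 and 1 in a different last exon of Slc44a1. SySy-called peaks were almost all exonic, whereas Cfg3 peaks were mostly intronic. Introns held 5 of 54 Slc peaks in Cfg1 (9.26%, Wilson interval 4.02 to 19.9%), 1 of 95 in Cfg2 (1.05%, 0.186 to 5.72%) and 47 of 62 in Cfg3 (75.8%, 63.8 to 84.8%). Cfg1 minus Cfg3 in this share was -66.5 percentage points (95% Newcombe interval -76.9 to -50.5, adjusted p 5.3e-13). This p-value, like the others below, is from Fisher's exact test, run two-sided and adjusted over the 9 tests between lists. For Cfg2 the difference from Cfg3 was -74.8 points (-83.7 to -61.9, adjusted p 1.2e-24, exact). Both kept their call with 1 peak per gene and list, for which the most 5′ peak was kept.

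Between Cfg1 and Cfg2 the intron share differed by 8.21 points (1.19 to 18.9, adjusted p 0.048 by Fisher's exact test). This difference rested on Slc38a1, which held 3 of the 5 intronic Cfg1 peaks. Without it the difference was 2.87 points with an adjusted p of 0.50, with 1 peak per gene and list it was 6.65 points (adjusted p 0.54), and with 1 refined peak per called region it was 10.8 points (adjusted p 0.057). The SySy-called intronic peaks were 6 in 4 genes: Slc38a1, Slc25a37, Slc20a2 and Slc9b1. The Cfg1 peak of Slc9b1, a sodium/proton antiporter gene, lay 5216 nt into intron 7 and was the only one of the 5 intronic Cfg1 peaks in no exon of another transcript of its gene.

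The same shares were set against the peaks of other protein-coding genes in the same list. In Cfg3, 47 of 62 Slc peaks (75.8%) against 2970 of 5173 other peaks (57.4%) were intronic, a difference of 18.4 points (6.36 to 27.4, adjusted over 12 Fisher's exact tests p 0.023). In Cfg2 the shares were 1.05% for Slc peaks and 10.96% for 4681 other peaks, a difference of -9.91 points (-11.2 to -5.16, adjusted p 0.0042, exact). In Cfg1 they were 9.26% and 6.51% of 4747, a difference of 2.75 points (-2.54 to 13.4) that did not pass (adjusted p 0.68, exact) and was -2.59 points without Slc38a1. Peaks of 1 gene are not independent of each other. With 1 peak per gene and list the Cfg3 difference was 13.1 points (adjusted p 0.40) and the Cfg2 difference -8.73 points (adjusted p 0.23), and with 1 refined peak per called region they were 17.2 and -9.61 points (adjusted p 0.057 for both).

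**Figure D3:**
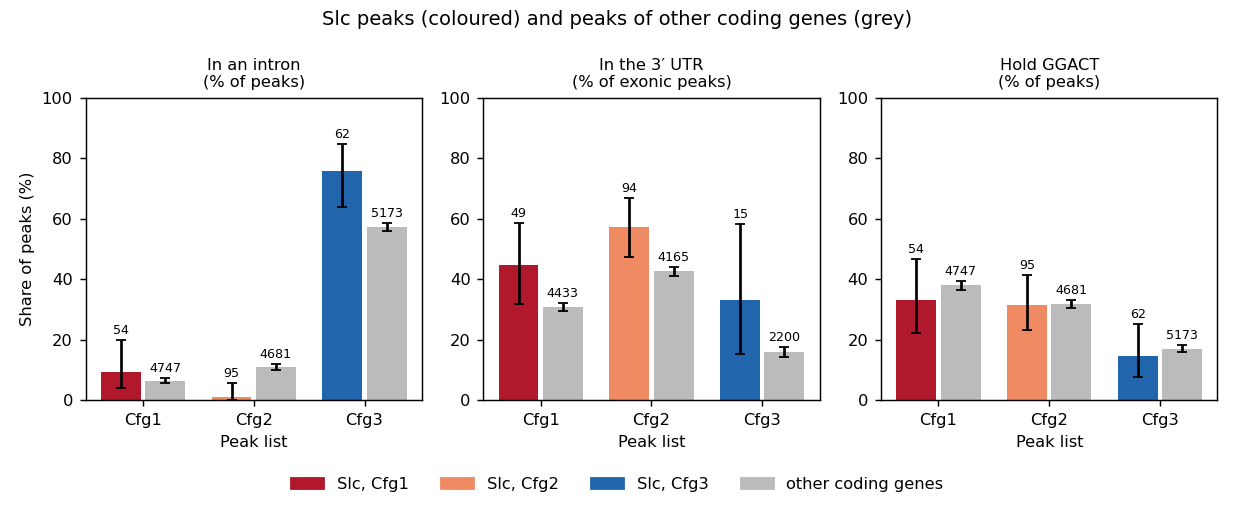
Share of peaks in introns, share of exonic peaks in the 3′ UTR and share of peaks with GGACT, in percent, for Slc genes (coloured, left of each pair) and other coding genes (grey, right) in Cfg1, Cfg2 and Cfg3; bars carry 95% Wilson intervals and the number of peaks. The Cfg3 intron share was 75.8% for Slc peaks and 57.4% for the others, and the Cfg2 share in the 3′ UTR was 57.4% for Slc peaks and 42.6% for the others.

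Of the SySy-called exonic Slc peaks 76 of 143 (53.1%) lay in the 3′ UTR. Of exonic Cfg2 peaks 54 of 94 in Slc genes (57.4%) and 1776 of 4165 in other coding genes (42.6%) lay in the 3′ UTR, a difference of 14.8 points (4.6 to 24.4, adjusted p 0.023 by Fisher's exact test). For Cfg1 the shares were 44.9% of 49 Slc peaks and 30.9% of 4433 others, 13.9 points apart (0.831 to 27.8, adjusted p 0.13, exact), and for Cfg3 they were 33.3% of 15 and 15.9% of 2200 (adjusted p 0.19, exact). The Cfg2 call was lost with 1 peak per gene and list (15.8 points, adjusted p 0.23) and with 1 refined peak per called region (9.87 points, adjusted p 0.33). In a setting added after seeing the data, Slc5a3, whose peaks lay mostly in coding sequence, was left out. Leaving out such peaks raises the 3′ UTR share by itself. The Cfg1 difference was then 19.1 points (adjusted p 0.034, exact), which adds no support for a difference. Slc genes with peaks also had a longer median 3′ UTR, given above, and its part in these shares was not tested.

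Of the exonic peaks of Slc genes, the last exon held 37 of 49 in Cfg1 (75.5%), 67 of 94 in Cfg2 (71.3%) and 10 of 15 in Cfg3 (66.7%). Among other coding genes the same shares were 58.0%, 62.2% and 42.7%. The median exonic Slc peak lay 148 nt before the first base of the stop codon for Cfg1, 59 nt past it for Cfg2 and 370 nt before it for Cfg3. In other coding genes the medians were 472, 204 and 1049.5 nt before it. Neither the last-exon shares nor these medians were tested against other genes, and the Cfg3 values rest on 15 peaks. Within 200 nt of the stop codon lay 12 of 49 peaks in Cfg1 (24.5%), 21 of 94 in Cfg2 (22.3%) and 4 of 15 in Cfg3 (26.7%), beside 24.5%, 23.3% and 15.6% in other coding genes. None of the 6 Fisher's exact tests of this share passed, between lists or against other genes, and the intervals of the Cfg1 and Cfg2 differences from other genes were -10.002 to 13.6 and -8.28 to 8.57 points. The 76 SySy-called peaks of the 3′ UTR lay in 48 genes, and 51 of them were within 500 nt of the stop codon.

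**Figure D4:**
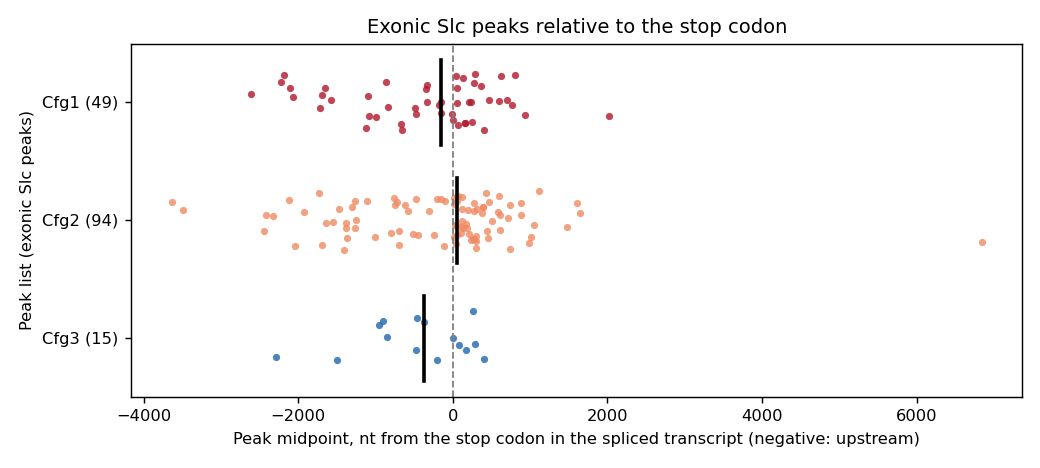
Position of each exonic Slc peak midpoint in nt from the stop codon of the spliced representative transcript (horizontal axis, negative upstream) for Cfg1, Cfg2 and Cfg3; black bars are medians, at -148, 59 and -370 nt, and the vertical scatter within a list carries no value. The Cfg2 peak at 6846 nt is that of Slc38a9.

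Coding sequence held 57 of 143 exonic SySy-called peaks of Slc genes (39.9%, against 58.9% of 8598 in other coding genes), in 29 genes. Of these 57 peaks 27 were in the last exon and 8 in the first, and the rest were in internal exons such as exon 2 of Slc39a10 and exon 5 of Slc16a3. In 9 genes a SySy-called peak lay in the 5′ UTR. In Cfg1 these were 5 of 49 exonic Slc peaks (10.2%, against 1.87% of 4433 in other coding genes), and in Cfg2 they were 5 of 94 (5.32%, against 7.27% of 4165). The shares in coding sequence and in the 5′ UTR were not tested. Of the 10 peaks 7 were in exon 1, among them a pair in the creatine transporter Slc6a8 and 1 each in Slc19a2, Slc39a9 and Slc1a5. Antibodies against m6A also bind the cap-adjacent m6Am, and the peaks do not tell the marks apart. The 5 Cfg2 peaks all lay in exon 1, nearer to its start than the Cfg1 peaks of exon 1 given below. All were on the plus strand. Their midpoints were chr18:57878784 in Slc12a2 (exon start 57878678) and chrX:73673265 and 73673375 in Slc6a8 (start 73673150). Those of Slc19a2 and Slc39a9 were chr1:164249196 (start 164249046) and chr12:80644420 (start 80644239). Of the 5 Cfg1 peaks, those of Slc5a3, Slc20a2 and Slc45a4 lay in exon 2. The Slc1a5 peak had its midpoint at chr7:16781840, in an exon 1 that starts at 16781340. That of Slc33a1, on the minus strand, was at chr3:63964194, in an exon 1 that starts at 63964768. Which mark these peaks hold was not tested.

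Of the 47 intronic Cfg3 peaks, in 26 Slc genes, 15 lay in the first intron (31.9%, against 31.4% of 2970 intronic Cfg3 peaks of other coding genes). In the first 25% of the intron lay 12 (25.5%, against 29.3% in other coding genes). The distance to the 5′ splice site ranged from 47 nt in Slc25a44 to 54942 nt in Slc10a7, with a median of 3169 nt (3860.5 nt in other coding genes), and the host introns were 1086 to 84229 nt long. In an exon of another transcript of the gene lay 7 of 47 (14.9%), in Slc38a1, Slc25a28, Slc15a4, Slc37a3 and Slc4a7, against 6.77% in other coding genes, a pair of shares that was not tested. Of all 21951 protein-coding genes, 2910 had a Cfg3 peak and 1198 had Cfg3 peaks only (13.3% and 5.46%). The rest of the 2910 had SySy-called peaks as well. Among the 371 Slc genes the same counts were 38 and 18 (10.2% and 4.85%), which leaves 20 genes with both. In 8 of these 20 genes a Cfg3 midpoint lay within 500 nt of a SySy-called one, as in Slc20a2 (183 nt) and Slc39a7 (188 nt). In 9 the nearest pair was more than 5000 nt apart. These distances were not measured in other coding genes.

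**Figure D5:**
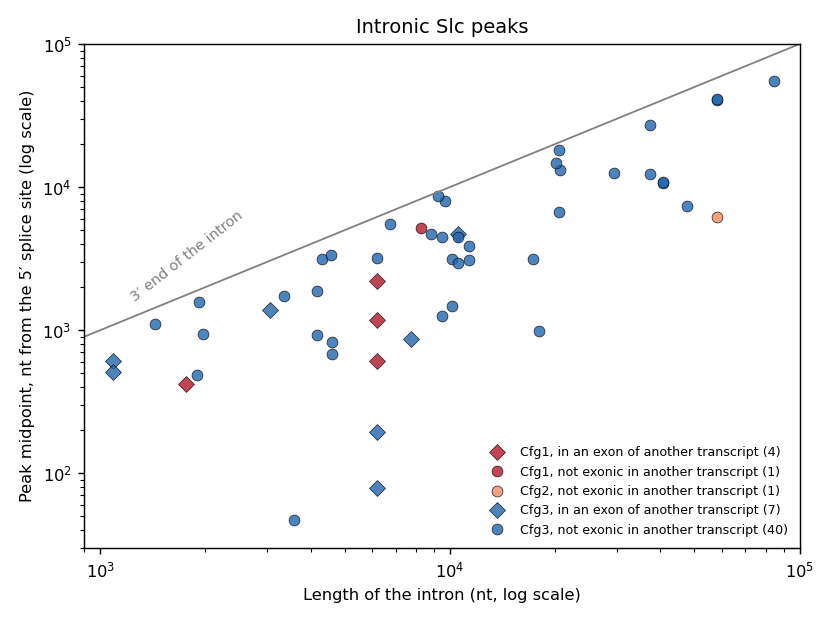
Distance of each intronic Slc peak midpoint from the 5′ splice site against the length of its intron, both in nt on log scales, coloured by list; diamonds lie in an exon of another transcript of the gene, circles do not, and the grey line marks the 3′ end of the intron. Of 5 Cfg1 peaks 4 are diamonds, 3 of them in intron 3 of Slc38a1, while 7 of 47 Cfg3 peaks are.

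GGACT, searched on the strand of the gene within the peak, was present in 18 of 54 Slc peaks in Cfg1 (33.3%), 30 of 95 in Cfg2 (31.6%) and 9 of 62 in Cfg3 (14.5%). The Cfg1 share exceeded that of Cfg3 by 18.8 points (3.32 to 33.7, adjusted p 0.048) and the Cfg2 share by 17.1 points (3.31 to 29.02, adjusted p 0.048), both by Fisher's exact test adjusted over 9 tests. Cfg1 and Cfg2 were 1.75 points apart (-13.1 to 17.5, adjusted p 0.96, exact). The median Slc peak was 190 nt wide in Cfg1, 153.5 nt wide in Cfg2 and 138 nt wide in Cfg3. In windows that reached 50 nt to either side of the midpoint GGACT was present in 25.9%, 25.3% and 11.3%, and the differences from Cfg3 were 14.6 points (adjusted p 0.096) for Cfg1 and 13.97 points (adjusted p 0.09) for Cfg2. These calls were also lost without Slc38a1 (adjusted p 0.081 and 0.12) and with 1 peak per gene and list (0.21 and 0.34), and the Cfg2 one with 1 refined peak per called region (0.11) or with any DRACH in place of GGACT (0.24).

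Against peaks of other coding genes the GGACT share of Slc peaks was 33.3% against 37.98% in Cfg1, 31.6% against 31.7% in Cfg2 and 14.5% against 17.1% in Cfg3. None of these 3 Fisher's exact tests passed, and the intervals of the differences were -15.8 to 8.73, -8.75 to 9.83 and -9.38 to 8.26 points. In the windows of fixed width the share was 25.9% against 24.7% in Cfg1, 25.3% against 22.2% in Cfg2 and 11.3% against 12.99% in Cfg3. Any DRACH was present in 54 of 54 Cfg1, 90 of 95 Cfg2 and 54 of 62 Cfg3 Slc peaks. Among the 18 pentamers of that consensus, AGACT was in 25 of the 54 Cfg1 Slc peaks (46.3%, against 36.9% in other coding genes), while in Cfg2 its share was 26.3% against 28.5% and in Cfg3 16.1% against 19.3%. AGACT is named after its values were seen. Other pentamers went either way in Cfg1, such as TAACT (20.4% of Slc peaks against 10.6%) and AGACA (25.9% against 32.8%). Single pentamers other than GGACT were not tested. The GGACT motifs under SySy-called peaks in Slc coding sequence numbered 19, of which 11 stood in the frame that reads GAC, the codon for aspartate (57.9%, against 53.7% of 2063 in other coding genes).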

How the data were processed

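ChrMeRIP-seq peaks of E14 mouse embryonic stem cells were taken from the 3 deposited lists. According to the submitters' processing notes and the study's methods, the authors called peaks separately for each antibody, from its duplicate IP and input libraries, with MACS2 2.1.1 (build mm10), gave each the strand with the stronger enrichment, and split and trimmed it around its summits. HOMER is also named in those notes. The deposited score column was 0 throughout and was not used further. Depth per library is not given by the lists. A plus strand was taken for 1 entry whose strand field held an extra character.

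The Slc genes and the lists of genes were chosen with earlier results of these data known. Peaks were placed by midpoint on the same strand, on GRCm38.p6 with GENCODE M21, an earlier release than the study's. The genome was checked against 1810 transcripts, of which 1810 matched. The transcript with the longest coding sequence represented each gene. Peaks of other coding genes were those in no Slc span, and one over several genes went to a gene in which it was exonic. Genes named were those with 4 or more peaks, the 5 with the most peaks of each list, those with a SySy-called intronic peak, the one with the most SySy-called peaks in each functional group, and 13 well-known carriers; others are named as examples after their values were seen. Shares have Wilson intervals and differences Newcombe intervals (95%). Two-sided Fisher's exact tests (scipy 1.17.1, Python 3.11.15) were adjusted by Benjamini-Hochberg over 9 tests between lists and 12 against other genes, at a threshold of 0.05. The placement and the tests were tested on simulated data.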

Additional observations from a re-analysis of the deposited data

How the results depend on the processing

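Of the 21 tested differences, 8 passed. The differences of Cfg1 and of Cfg2 from Cfg3 in the intron share of Slc peaks kept direction and call under every alternative run, and the number of Slc genes stayed between 87 and 92. The other calls were fragile. With 1 peak per gene and list, Cfg1 minus Cfg2 in introns was 6.65 points (adjusted p 0.54), Cfg1 and Cfg2 minus Cfg3 in GGACT 21.1 and 15.7 points (0.21 and 0.34), and Slc minus other genes -8.73 points in Cfg2 introns, 13.1 in Cfg3 introns and 15.8 in the Cfg2 3′ UTR (0.23, 0.40 and 0.23). Fewer peaks enter that setting. It keeps the most 5′ peak, as does the setting with 1 refined peak per called region. That choice can itself move the shares by location. Without Slc38a1 the list differences were 2.87 points (introns, Cfg1 minus Cfg2) and 19.2 and 15.5 points (GGACT). With GGACT within 50 nt of the midpoint they were 14.6 and 13.97 points, and with DRACH in place of GGACT Cfg2 minus Cfg3 was 7.64 points (0.24). With 1 refined peak per called region, a setting added after seeing the data, they were 10.8 (introns, Cfg1 minus Cfg2) and 15.4 points (GGACT, Cfg2 minus Cfg3), and Slc minus other genes -9.61, 17.2 and 9.87 points in Cfg2 introns, Cfg3 introns and the Cfg2 3′ UTR. Without Slc5a3, also added, the Cfg1 3′ UTR difference passed (19.1 points, 0.034), but removing peaks of coding sequence raises that share by itself.

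Differences that had not passed changed sign in 15 cases, the cause of which was not tested. For shares near the stop codon, Slc minus other genes became 0.522 in Cfg1 with the longest spliced transcript, 0.927 and 1.49 in Cfg1 and Cfg2 with 1 peak per gene, and 6.48 and 1.55 with a window of 400 nt, while Cfg1 and Cfg2 minus Cfg3 became 0.852 and 0.178 with 1 peak per gene and Cfg1 minus Cfg3 1.41 without Slc38a1. For GGACT, Slc minus other genes became 0.904 in Cfg3 with 1 peak per gene, 0.716 in Cfg1 with DRACH, 1.26 and 3.02 in Cfg1 and Cfg2 within 50 nt of the midpoint, 0.170 in Cfg2 without Slc5a3 and 3.26 in Cfg1 with 1 peak per called region. In Cfg1 introns it became -2.59 without Slc38a1. No paired analysis was possible because the lists give no values for single libraries, and for the same reason no replicate could be left out and no stricter peak threshold applied.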
